A study of Mus musculus with 12 samples.

Results

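The antiviral interferon-stimulated genes are a set of 35 named genes whose products restrict viruses, sense foreign RNA or DNA, or tune the interferon response. They were taken by name, and a gene counted as measured where a probe set carried its symbol and no other. By that rule 33 of the 35 were measured, among 18193 genes on the array. Isg15 shared its probe set with Gm9706 and Ifi44 had none of its own, so neither has a value here. Of the measured members, 15 had more than 1 probe set, and such a gene was given by its brightest probe set, averaged across arrays.

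Skin was taken from mice of the C3H/HeJ grafted model of alopecia areata, an autoimmune hair loss in which recipients of skin from alopecic donors of the same strain lose their hair. All 6 mice were such graft recipients with established disease at the start. Baricitinib, an inhibitor of the kinases JAK1 and JAK2, was given topically to 3 mice and vehicle to the other 3. Each mouse gave skin at week 0, the start of treatment, and at week 12, so that there were 4 groups of 3 Affymetrix arrays. The 2 week 0 groups therefore had established disease and no treatment yet. The comparisons ask how these genes differ after topical treatment of established disease. Values are log2 intensities normalised by the authors with RMA (robust multi-array average), and 3 values in a row are replicates 1, 2 and 3 of a group.

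Cells release type I interferons when they sense viral nucleic acid, and T cells and natural killer cells release interferon-gamma. Both kinds of interferon signal through receptors bound to JAK kinases, which activate transcription factors that bind the interferon-stimulated response element (ISRE) or the gamma-activated site (GAS) near the genes they induce. In alopecia areata, T cells gather around the hair follicle and the skin carries a strong interferon response.

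The promoters of several members hold the letters of an ISRE, and these stretches are shown because they are the sequence through which interferon-activated factors are known to act. Windows from 250 bases before to 50 after a gene's start were read from RefSeq (GRCm38.p6) and were present for 25 of the 35 members. The core searched was GAAANNGAAA on both strands. Capitals mark the match nearest the start, with up to 18 bases on each side, and each line runs 5′ to 3′ on the strand of the gene.
Ifit1, chr19:34640786-34640831, plus strand: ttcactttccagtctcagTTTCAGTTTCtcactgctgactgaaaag
Ifit3, chr19:34583389-34583434, plus strand: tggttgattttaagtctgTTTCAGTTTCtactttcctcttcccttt
Oas1a, chr5:120907526-120907557, minus strand: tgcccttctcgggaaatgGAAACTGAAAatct
Oas3, chr5:120777707-120777752, minus strand: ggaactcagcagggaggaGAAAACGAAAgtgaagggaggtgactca
Rsad2, chr12:26456545-26456590, minus strand: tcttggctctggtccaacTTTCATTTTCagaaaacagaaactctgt
Bst2, chr8:71537569-71537614, minus strand: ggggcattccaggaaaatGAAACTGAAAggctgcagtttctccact

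In Ifit1 and Ifit3 the match lies on the opposite strand and has the same 10 letters in both genes. The match began 85 bases before the start of Ifit1 and 122 before that of Ifit3. In Oas1a it lay 14 bases before the start. The core occurred in the windows of 11 of 25 members (44.0%), against 1079 of 27025 genes with a window (3.99%). The members with it were Ifih1, Isg15, Oas3, Oas1a, Trim30a, Ifitm3, Bst2, Rsad2, Eif2ak2, Ifit3 and Ifit1. The GAS letters TTCNNNGAA, which read the same on both strands, occurred in 7 of 25 members (28.0%) and in 9.55% of all genes with a window. A match is a description of the letters and not a mapped binding site.

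The members as a set were lower after 12 weeks of topical baricitinib than in the same mice at week 0. Of 33 members, 12 fell and 0 rose (limma, adjusted p under 0.05 over 45037 probe sets), where 0.875% of all probe sets were called lower. The genes that fell were Oasl2, Ifit1, Mx1, Herc6, Rtp4, Oas2, Oas1a, Ifit3, Cmpk2, Adar, Parp14 and Ifih1. The differences ran from -3.91 for Oasl2 to -0.00 for Ifi27l2a on the log2 scale, and all 33 were below 0. Their median was -1.63, while the median over all 18193 genes was -0.02. In 27 members every week 12 value lay below every week 0 value, as was so for 7.91% of all probe sets. Besides the 12 called, 18 members had an unadjusted p under 0.05 and did not pass after adjustment, beside 2726 lower and 2806 higher of all probe sets at that unadjusted threshold.

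In the vehicle mice 0 members were called over the same 12 weeks, as was so for 0% of all probe sets (limma). At an unadjusted p under 0.05 there were 6 members, beside 551 lower and 557 higher among all probe sets. The vehicle differences were nonetheless below 0 in 32 of 33 members, with a median of -0.48, and the exception was Adar at 0.07. Single arrays set the size of that median, which was -0.15 without vehicle week 0 replicate 1, -0.77 without week 0 replicate 3 and -0.21 without week 12 replicate 3. In 6 members the groups did not overlap, with week 12 lower (3.59% of all probe sets). These were Ifit2, Ifit3, Mx1, Rsad2, Herc6 and Trim30a.

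**Figure D1:**
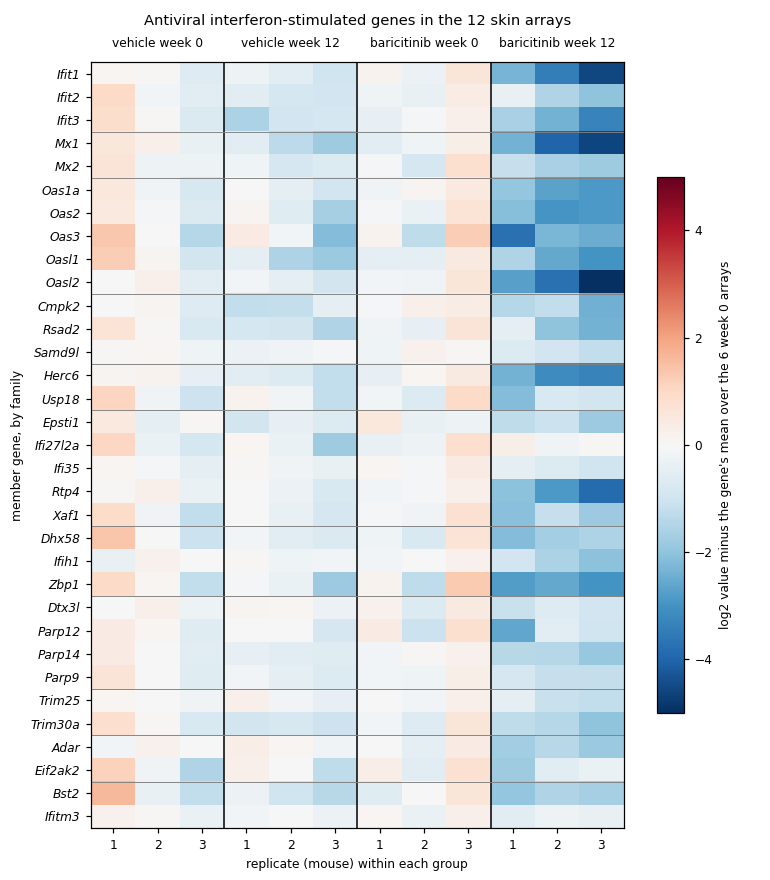
Each row is a measured member, grouped by family, and each column is 1 of the 12 arrays. Colour gives the log2 value minus the gene's mean over the 6 week 0 arrays, from blue (lower) to red (higher). The 3 baricitinib week 12 columns hold the lowest values of 23 of the 33 genes, and Ifi27l2a is among the 10 without that pattern.

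At week 12, baricitinib skin was below vehicle skin in 32 of 33 members, with a median log2 difference of -1.05, where the median over all genes was -0.04. Of these, 6 passed the test (Oasl2, Ifit1, Rtp4, Herc6, Oas1a and Adar), all lower, with 0.429% of all probe sets called lower. The groups did not overlap in 25 members, always with baricitinib lower, as against 9.69% of all probe sets. Ifi27l2a was the exception to the direction, at 0.72 (SE 0.56, limma adjusted p = 0.75). This comparison shares the baricitinib week 12 arrays with the comparison over time, so the 2 sets of values are not independent.

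Before treatment, 0 members were called and 0 had an unadjusted p under 0.05 (limma), where 0% of all probe sets were called and 310 were lower and 198 higher at that unadjusted threshold. The differences ran from -0.31 for Oasl1 to 0.33 for Eif2ak2, with a median of 0.04. In 0 members were all baricitinib values below all vehicle values (2.73% of all probe sets).

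Averaged over the 33 members, the arrays stood at 9.41 ± 0.45 in baricitinib mice at week 0 and 7.57 ± 0.28 at week 12 (SD, n = 3 mice). In vehicle mice the averages were 9.35 ± 0.60 and 8.82 ± 0.36. The lowest vehicle week 12 array, at 8.43, was above the highest baricitinib week 12 array, at 7.80. In 23 of 33 members all 3 baricitinib week 12 values lay below all 9 other arrays, as was so for 3.07% of all probe sets. The 10 members without this pattern were Ifit2, Oasl1, Rsad2, Usp18, Xaf1, Parp12, Dtx3l, Eif2ak2, Ifi27l2a and Ifitm3.

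The size of the change differed between mice. The median change over the members was -1.35, -1.11 and -2.38 in baricitinib replicates 1, 2 and 3, and -0.84, -0.46 and -0.21 in the vehicle replicates. Of the members, 28 were lower at week 12 in all 3 baricitinib mice, as was so for 12.9% of all probe sets, and 19 were lower in all 3 vehicle mice, as was so for 11.2%. In 16 members the changes of all 3 baricitinib mice lay below those of all 3 vehicle mice (6.14% of all probe sets).

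The change with baricitinib was next set against the change with vehicle in an interaction term. Here 0 of 33 members were called, as was so for 0% of all probe sets, while 15 members had an unadjusted p under 0.05, beside 1466 lower and 1359 higher of all probe sets (limma). The difference of the changes was below 0 in 32 members, with a median of -1.07. The lowest was Oasl2 at -3.50 (SE 0.69, limma adjusted p = 0.192). A larger fall with baricitinib than with vehicle was therefore not shown for any single member by this test.

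**Figure D2:**
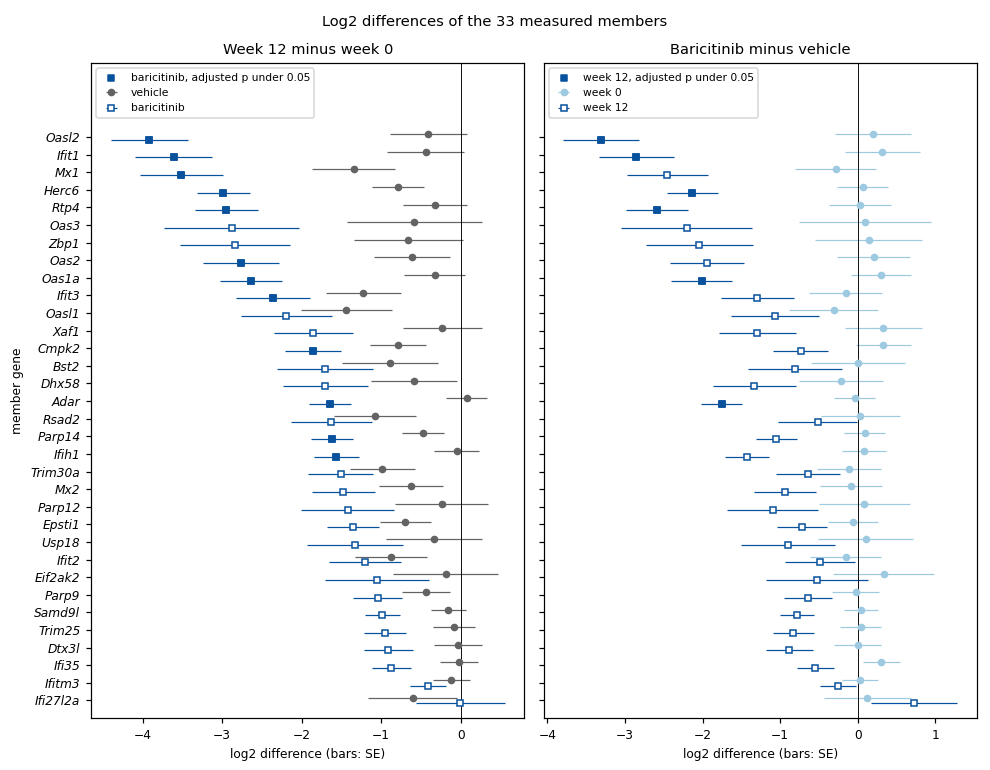
The left panel gives each member's log2 difference of week 12 minus week 0 for vehicle (circles) and baricitinib (squares), and the right panel gives baricitinib minus vehicle at week 0 (circles) and week 12 (squares), with SE bars from limma. Filled squares passed an adjusted p of 0.05: 12 on the left and 6 on the right, all below 0, and week 0 circles lie between -0.31 and 0.33.

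The oligoadenylate synthetases make short adenylate chains that switch on RNase L, which cuts viral and cellular RNA, and the Oasl proteins are their relatives. Of the 5 members, 3 fell with baricitinib and the family median was -2.76, against -0.59 with vehicle. Oasl2 stood at 10.79, 10.77 and 11.54 at week 0 and at 8.20, 7.21 and 5.94 at week 12 in baricitinib mice. In vehicle mice it stood at 10.94, 11.18 and 10.40, then at 10.81, 10.44 and 10.03. The 3 treated week 12 arrays were well below the other 9, with no overlap. This is a fall of 15.1-fold (log2 -3.91, SE 0.49, limma adjusted p = 0.00478), and the difference from vehicle at week 12 was -3.31 (adjusted p = 0.0148).

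Oas1a went from 9.33, 9.64 and 10.01 to 7.59, 6.82 and 6.66 with baricitinib, against 10.04, 9.36 and 8.70 and then 9.53, 9.02 and 8.55 with vehicle. Its log2 change was -2.64 (SE 0.39, limma adjusted p = 0.0111), and at week 12 it was lower than in vehicle by a log2 difference of -2.01 (adjusted p = 0.0473). Oas2 stood at 9.33, 9.07 and 10.08 before and at 7.27, 6.43 and 6.50 after baricitinib. It changed by -2.76 (SE 0.47, limma adjusted p = 0.0207), while vehicle skin spread from 7.72 to 9.52 at week 12 and the difference from it did not pass (adjusted p = 0.112).

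Oas3 and Oasl1 did not pass despite values of -2.88 and -2.19. Oas3 stood at 8.18, 6.70 and 9.21 before and 4.26, 5.68 and 5.51 after baricitinib, and its SE, pooled over the 4 groups, was 0.85 (limma adjusted p = 0.146). Oasl1 also stood lower in vehicle skin at week 12, by -1.44, the lowest vehicle value of any member. Its relatives outside the set, Oas1b and Oas1c, gave -1.47 (adjusted p = 0.442) and 0.35 (adjusted p = 0.675) with baricitinib.

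Ifit proteins bind viral RNA and block its translation. Of the 3, Ifit1 and Ifit3 fell and Ifit2 did not pass. Ifit1 stood at 10.92, 10.47 and 11.38 at week 0 and at 8.42, 7.31 and 6.20 at week 12 with baricitinib, against 10.86, 10.84 and 10.12 and then 10.52, 10.22 and 9.75 with vehicle. Only the treated week 12 arrays departed from the range of 9.75 to 11.38. The fall was 12.2-fold (log2 -3.61, SE 0.48, limma adjusted p = 0.00717), and the week 12 difference from vehicle was -2.85 (adjusted p = 0.0265).

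Ifit3, by contrast, was also lower in vehicle mice at week 12. It went from 9.17, 9.50 and 9.83 to 7.97, 7.22 and 6.23 with baricitinib and from 10.44, 9.65 and 8.87 to 7.98, 8.62 and 8.70 with vehicle. The baricitinib change of -2.36 passed (SE 0.47, limma adjusted p = 0.0366), and the week 12 difference from vehicle of -1.29 did not (adjusted p = 0.31). Ifit2 changed by -1.21 (adjusted p = 0.278) and by -0.88 with vehicle, and its groups overlapped in the baricitinib mice. Ifit1bl1, a relative outside the set, fell by 2.89 on the log2 scale (adjusted p = 0.0418).

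Mx proteins are GTPases that trap viral components. Mx1 stood at 9.04, 9.36 and 9.88 before and at 7.20, 5.57 and 4.98 after baricitinib, a fall of 11.4-fold (log2 -3.51, SE 0.52, limma adjusted p = 0.0114). In vehicle mice it went from 10.14, 9.81 and 9.20 to 9.02, 8.28 and 7.81, without overlap between the weeks, a difference of -1.34 that did not pass (SE 0.52, adjusted p = 1.00). At week 12 baricitinib skin was below vehicle skin in every pair of arrays, by -2.46, with an adjusted p of 0.0689. Mx2 changed by -1.48 (adjusted p = 0.115), and its week 12 values of 4.04, 3.57 and 3.42 were below the medians of those arrays, 5.21 to 5.33.

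**Figure D3:**
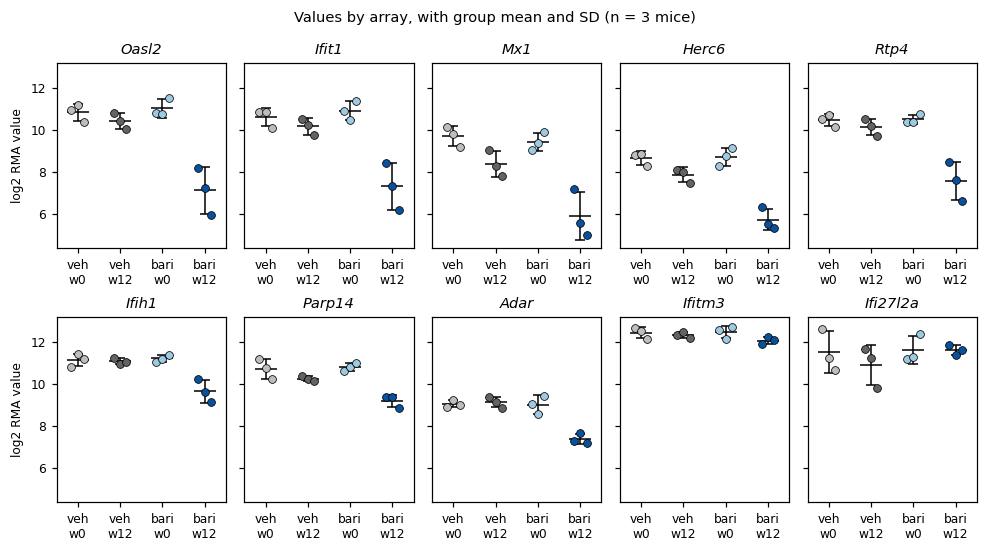
Points are single arrays on the log2 scale for 10 members, and bars give the group mean and SD (n = 3 mice) for vehicle (veh) and baricitinib (bari) at weeks 0 and 12 (w0, w12). Oasl2, Ifit1, Mx1, Herc6, Rtp4, Ifih1, Parp14 and Adar are lower on all 3 baricitinib week 12 arrays than on the other 9, while Ifitm3 and Ifi27l2a overlap.

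ISG15 is a small ubiquitin-like protein that interferon induces and that enzymes attach to other proteins. Herc6 is the main ligase for it in mice, and Usp18 removes it and also restrains the type I interferon receptor. Herc6 stood at 8.26, 8.77 and 9.12 before and at 6.32, 5.53 and 5.34 after baricitinib. In vehicle mice it went from 8.83, 8.87 and 8.26 to 8.11, 8.01 and 7.47, so that the treated week 12 arrays were again lowest. It fell 7.91-fold (log2 -2.98, SE 0.33, limma adjusted p = 0.00244), the lowest adjusted p among the members, and differed from vehicle at week 12 by -2.13 (adjusted p = 0.0177). Its dimmer probe sets gave -1.43, -1.59 and -1.44 with baricitinib (limma adjusted p = 0.152, 0.125 and 0.486). At week 12 against vehicle they gave -0.94, -0.83 and -0.58 and did not pass. With the mean of its probe sets the week 12 difference was -1.12 (limma adjusted p = 0.244).

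Usp18 was lower on average but did not pass, at -1.33 (SE 0.61, limma adjusted p = 0.406). It went from 9.20, 8.63 and 10.27 to 7.16, 8.54 and 8.41, so that replicate 2 hardly moved. Uba7 and Ube2l6, which activate and carry ISG15, gave -0.59 (adjusted p = 0.575) and -1.40 (adjusted p = 0.219).

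Rtp4, a chaperone for receptors that also binds viral RNA, was among the members with the largest fall. It stood at 10.36, 10.40 and 10.75 at week 0 and at 8.45, 7.60 and 6.62 after baricitinib, against 10.54, 10.73 and 10.14 and then 10.52, 10.17 and 9.73 with vehicle. The vehicle arrays of both weeks and the baricitinib week 0 arrays thus lay within 9.73 to 10.75. Its log2 change was -2.94 (SE 0.40, limma adjusted p = 0.00774), and its week 12 difference from vehicle was -2.59 (adjusted p = 0.0177). A dimmer probe set gave -1.35 with baricitinib (limma adjusted p = 0.338) and -1.25 at week 12 against vehicle (adjusted p = 0.443).

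The sensors detect nucleic acid in the cytoplasm. Ifih1 encodes MDA5, which recognises long double-stranded RNA, Dhx58 encodes its relative LGP2, and Zbp1 senses Z-form nucleic acid and can trigger cell death. Ifih1 went from 11.06, 11.20 and 11.40 to 10.23, 9.60 and 9.13 with baricitinib and from 10.82, 11.41 and 11.18 to 11.24, 10.98 and 11.04 with vehicle. It fell by 1.56 on the log2 scale (SE 0.28, limma adjusted p = 0.0252), against -0.05 with vehicle. Its week 12 difference from vehicle was -1.43 (adjusted p = 0.0531).

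Zbp1 changed more than Ifih1 in size and did not pass, at -2.84 (SE 0.69, limma adjusted p = 0.0764). It stood at 8.44, 7.01 and 9.56 before and at 5.49, 5.73 and 5.28 after baricitinib, and at 8.22, 7.95 and 6.45 in vehicle skin at week 12. The treated week 12 arrays were tightly grouped and below all others, while each of the other groups spanned over 1 unit. Dhx58 changed by -1.70 (adjusted p = 0.183).

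Adar edits adenosines in double-stranded RNA, and Eif2ak2 encodes PKR, which halts translation on binding it. Adar went from 9.06, 8.57 and 9.43 to 7.30, 7.66 and 7.19 with baricitinib and from 8.92, 9.25 and 9.01 to 9.37, 9.15 and 8.88 with vehicle. The vehicle weeks were interleaved and the treated week 12 arrays lay below all others. It fell by 1.64 on the log2 scale (SE 0.26, limma adjusted p = 0.0157) and was lower than vehicle at week 12 by -1.75 (adjusted p = 0.0159). Its other probe sets gave -0.99 (adjusted p = 0.494) and 0.07 (adjusted p = 0.982), so the fall was seen on the brightest of 3. At week 12 against vehicle they gave -0.32 and -0.17 (limma adjusted p = 0.929 and 0.979). With the mean of the Adar probe sets the week 12 difference was -0.75 (limma adjusted p = 0.439).

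Eif2ak2 did not pass and its groups overlapped. It went from 8.28, 7.38 and 8.73 to 6.18, 7.44 and 7.62 with baricitinib (log2 -1.05, SE 0.66, limma adjusted p = 0.593), and vehicle skin at week 0 alone spread from 6.48 to 9.11.

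The PARP members attach ADP-ribose to proteins, and Dtx3l is the ligase partner of Parp9. Parp14 fell, from 10.64, 10.82 and 11.00 to 9.37, 9.36 and 8.88 with baricitinib, against 11.20, 10.74 and 10.25 and then 10.38, 10.23 and 10.16 with vehicle. The log2 change was -1.62 (SE 0.26, limma adjusted p = 0.0171). At week 12 it was lower than vehicle on every array, by -1.05, without passing (adjusted p = 0.122). A dimmer probe set gave -0.89 with baricitinib (limma adjusted p = 0.273).

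Parp9, Parp12 and Dtx3l did not pass, with changes of -1.05, -1.42 and -0.91. The Parp12 value rested on replicates 1 and 3, which changed by -3.02 and -1.80, while replicate 2 changed by 0.56. Dtx3l stood 0.05 higher at week 12 in replicate 2 and lower in the others. Zc3hav1, another PARP family member, gave -0.46 (limma adjusted p = 0.548).

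The TRIM members Trim25, a ubiquitin ligase that activates the RNA sensor RIG-I, and Trim30a did not pass. Trim25 went from 10.69, 10.57 and 10.96 to 10.28, 9.60 and 9.47 with baricitinib (log2 -0.96, SE 0.27, limma adjusted p = 0.122). Its week 12 vehicle values of 10.96, 10.58 and 10.32 were all above those. Trim30a changed by -1.51 (adjusted p = 0.114) with baricitinib and by -0.99 with vehicle. Its relative Trim30d fell by 2.89 on the log2 scale (adjusted p = 0.0306), and a further probe set shared by Trim30d and Trim30a was not used.

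The membrane proteins Bst2, or tetherin, which holds new virions at the cell surface, and Ifitm3, which blocks fusion of viruses in endosomes, did not pass. Bst2 went from 7.30, 7.93 and 8.52 to 5.97, 6.42 and 6.25 with baricitinib (log2 -1.70, SE 0.60, limma adjusted p = 0.242). Vehicle skin at week 0 spread from 6.67 to 9.52, the widest of the 4 groups for this gene. Ifitm3 went from 12.56, 12.15 and 12.74 to 11.89, 12.22 and 12.10, a change of -0.41 (SE 0.23, adjusted p = 0.536) with overlap.

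Among relatives of Ifitm3, Ifitm6 rose by 4.54 on the log2 scale (SE 0.83, limma adjusted p = 0.0262). It was the only one of 24 measured family relatives that rose, while Ifit1bl1, Trim30d and Helz2 fell. The median over the 24 relatives was -0.53.

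Cmpk2, a mitochondrial nucleotide kinase that lies beside Rsad2 in the genome, fell. It went from 7.27, 7.60 and 7.72 to 5.95, 6.11 and 4.95 with baricitinib (log2 -1.86, SE 0.35, limma adjusted p = 0.0298). In vehicle mice it went from 7.37, 7.52 and 6.71 to 6.14, 6.19 and 6.90, so replicates 1 and 2 also stood lower and the week 12 difference between arms was -0.74 (adjusted p = 0.488). A dimmer Cmpk2 probe set gave -0.32 with baricitinib (limma adjusted p = 0.644) and 0.19 at week 12 against vehicle (adjusted p = 0.874). Rsad2 encodes viperin, which makes a chain-terminating nucleotide, and changed by -1.63 (adjusted p = 0.176) with baricitinib and -1.08 with vehicle.

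For Rsad2 the highest baricitinib week 12 value, 8.91, was above the lowest vehicle value, 7.87, so the arms overlapped at week 12. Samd9l, which slows translation in infected cells, changed by -0.99 (SE 0.22, limma adjusted p = 0.0572). Of the remaining induced genes, Xaf1 gave -1.86 (adjusted p = 0.11), Epsti1 -1.36 (adjusted p = 0.0727) and Ifi35 -0.87 (adjusted p = 0.119).

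Xaf1, a promoter of cell death, had a dimmer second probe set that did pass, at -1.81 (limma adjusted p = 0.0333), and at week 12 against vehicle at -2.50 (adjusted p = 0.0126). Of 25 other probe sets of members, 24 were below 0 with baricitinib and 1, that of Xaf1, was called.

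Ifi27l2a, a small interferon-induced membrane protein, stood apart from the set. It went from 11.19, 11.29 and 12.39 to 11.85, 11.40 and 11.61 with baricitinib, against 12.61, 11.23 and 10.67 and then 11.65, 11.24 and 9.81 with vehicle. The change was -0.00 (SE 0.56, limma adjusted p = 0.999), with replicates 1 and 2 higher at week 12 and replicate 3 lower.

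Across families, the median log2 change with baricitinib ran from -2.76 for the oligoadenylate synthetases and -2.49 for the Mx proteins to -1.23 for the PARP proteins with Dtx3l, -1.23 for the TRIM proteins and -1.06 for the membrane proteins. With vehicle the family medians ran from -0.98 for the Mx proteins to -0.06 for Adar and Eif2ak2. These are descriptions of 2 to 5 genes each, and families were not tested against each other. Measured members with the ISRE core in their window had a median change of -1.66 (n = 10, of which 4 fell), and those with a window but without the core had -1.42 (n = 13, of which 4 fell). Oasl2 and Herc6 were among the latter.

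The genes upstream of the members were described from a list of 32 measured pathway genes, of which 4 fell and 0 rose with baricitinib, with a median of -0.36. Among the ligands, Ifng, which encodes interferon-gamma, fell from a mean of 7.87 to 4.37 (log2 -3.50, SE 0.40, limma adjusted p = 0.0028). It was also lower than in vehicle skin at week 12, by -2.43 (adjusted p = 0.0248), the only pathway gene called there. The type I interferon genes Ifna1, Ifna2, Ifna4 and Ifnb1 had group means of 1.77 to 4.11 in every group, below the array medians, and changes between -0.30 and 0.04 with baricitinib.

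Of the 6 receptor chains and 3 JAK family kinases, 0 were called, with baricitinib changes from -0.53 (Ifnar2) to 0.55 (Ifngr1) and at an adjusted p of 0.464 and 0.72. The kinases Jak1, Jak2 and Tyk2 changed by -0.09, -0.39 and 0.03. Among the transcription factors, Irf1, which interferon-gamma induces directly, fell by 1.47 on the log2 scale (SE 0.31, limma adjusted p = 0.0456). Irf7, which amplifies type I interferon, changed by -1.95 (adjusted p = 0.13), Irf9, the DNA-binding partner at the ISRE, by -1.01 (adjusted p = 0.0649), and Stat2 by -1.50 (adjusted p = 0.441).

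Among the other sensing genes, Ddx58, which encodes RIG-I, fell by 1.61 (SE 0.31, limma adjusted p = 0.0318), and Sting1, the adaptor of cytoplasmic DNA sensing, fell by 2.08 (SE 0.33, adjusted p = 0.0161), both on the log2 scale. Cgas, the sensor that feeds Sting1, changed by -0.79 (adjusted p = 0.168), and the adaptor Mavs by -0.56 (adjusted p = 0.698). The receptor restraints Socs1 and Socs3 gave -0.06 and -0.68, and neither passed. Socs1 had group means of 3.75 to 3.96, below the array medians, which bounds how far it can be seen to fall.

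**Figure D4:**
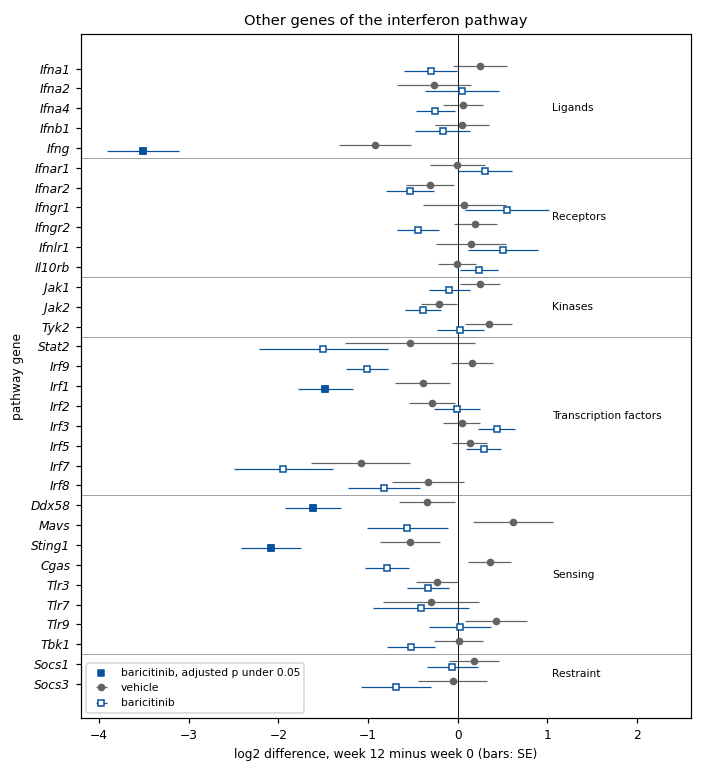
Log2 differences of week 12 minus week 0, with SE bars from limma, for 32 pathway genes ordered by role, in vehicle (circles) and baricitinib (squares) mice. Filled squares (Ifng, Irf1, Ddx58 and Sting1) passed an adjusted p of 0.05, and receptors and kinases lie near 0.

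The GBP and IRG GTPases, a set that interferon-gamma induces, were compared with the members. All 10 measured fell with baricitinib, with a median of -2.68, and 7 of 10 were lower than vehicle at week 12, with a median of -2.09. The corresponding counts among the members were 12 of 33 and 6 of 33. With vehicle the 10 had a median of -0.30 and 0 were called. Of the listed GBP and IRG genes, measured or not, 10 had a promoter window. The ISRE core was in 9 of those (90.0%) and the GAS letters in 6 (60.0%). The difference between the 2 gene sets was not tested.

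The labelled tissue was checked against its markers. The 7 keratinocyte genes measured, among them Krt5, Krt14, Krt1 and Krt10, had group means between 11.12 and 13.50, and 0 were called with baricitinib. For T cells 1 of 7 genes fell, Cd8a by 4.29 on the log2 scale (limma adjusted p = 0.00912). Cd2 and Cd8b1 gave -0.57 and -0.51 without passing, and Cd3d, Cd3e, Cd3g and Cd4 gave -0.08, 0.01, 0.55 and 0.08. The median over the 7 was -0.08. The T cell list, Cd8a included, averaged 6.67 to 7.65 on baricitinib week 0 arrays and 5.97 to 6.95 at week 12, and Cd4 and Cd8b1 were below the array medians in every group. The leukocyte genes Ptprc, Cd52 and Coro1a gave -0.95 (adjusted p = 0.271), -0.19 and -0.18, and averaged 9.999 to 10.48 on week 0 arrays and 9.59 to 9.94 at week 12.

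Of 6 macrophage genes 0 were called, with averages of 8.29 to 8.32 and then 7.70 to 8.52 and with Itgam below the array medians. Of 3 genes listed for plasmacytoid dendritic cells, a main source of type I interferon, 0 were called, with averages of 5.75 to 6.06 and then 5.94 to 6.57. Siglech had group means of 4.90 to 5.14, below the array medians, and Cd209d, at 7.04 to 8.23, was the brightest of the 3. The averages therefore do not show that these cells were detected. The hair shaft genes Krt31 and Krt35 fell, by 5.16 and 6.51 on the log2 scale. Of 3 neutrophil genes 0 were called, with averages of 8.06 to 8.41 and then 6.67 to 7.63. S100a8 gave -2.58 (limma adjusted p = 0.0882) and S100a9 -1.09 (adjusted p = 0.348). Mpo, with group means below the array medians, gave 0.44 (adjusted p = 0.841). The adipocyte gene Adipoq gave 2.44 (adjusted p = 0.0794). Of 5 fibroblast genes, 2 B cell genes and 2 endothelial genes, 0 were called. In whole skin, fewer cells of a type and less RNA per cell cannot be told apart, and the part of cell make-up in the changes of the members was not tested.

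Arrays also differed in RNA quality as read from the 3′ and 5′ control probe sets of Gapdh and beta-actin. The index, 3′ minus 5′ on the log2 scale, was 1.27 and 1.31 in baricitinib week 12 replicates 2 and 3 and 1.23 in vehicle week 0 replicate 1, and 2.55 to 4.10 on the other 9 arrays. Baricitinib week 12 replicate 1 had an index of 3.45, within the range of those 9, and a member mean of 7.80, below all arrays outside its group. Vehicle week 0 replicate 1 had a low index and the highest member mean, 9.94. With the index as a covariate, an alternative chosen after seeing the data, 26 members were called with baricitinib and 14 at week 12 against vehicle. Of all probe sets 1763 and 792 were then called in either direction, against 557 and 261 in the main fit. The lowest mean correlation with the other arrays was that of baricitinib week 0 replicate 2 and week 12 replicate 1, at 0.941 and 0.946. Without both, also chosen after seeing the data, 14 and 10 members were called, beside 860 and 1008 of all probe sets.

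**Figure D5:**
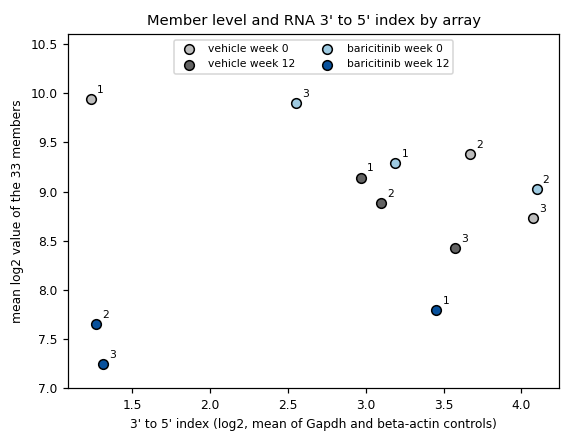
Each point is 1 of the 12 arrays, labelled by replicate, with the 3′ to 5′ index on the x axis (log2) and the mean log2 value of the 33 members on the y axis. The 3 baricitinib week 12 arrays are the lowest on the y axis, at 7.25 to 7.80, at indices of 1.27, 1.31 and 3.45.

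The calls of single members rested on few arrays. When each mouse entered the fit as a fixed replicate block, 7 of the 12 members still passed with baricitinib. Of all probe sets 158 were called in that fit in either direction, against 557 in the main fit. Adar (limma adjusted p = 0.0825), Cmpk2 (0.11), Ifih1 (0.103), Ifit3 (0.119) and Parp14 (0.0666) did not. With the mouse as a random replicate block, all 12 still passed. The correlation fitted there between the 2 arrays of a mouse was -0.0039, so that fit was nearly the main fit. It is therefore no separate check of the calls. Without baricitinib week 0 replicate 3 only 3 members were called, without baricitinib week 12 replicate 2 or 3 there were 5, and without baricitinib week 0 replicate 1 there were 7. The calls over all probe sets fell as well, to 70, 121, 140 and 206 in that order. At week 12 against vehicle, leaving out vehicle week 12 replicate 1 or 2 left 0 members called. Leaving out baricitinib week 12 replicate 2 or 3 left 1 and 2. Over all probe sets 32, 48, 77 and 80 were then called, against 261 in the main fit. Herc6 passed with baricitinib under each of the 23 alternatives run.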

How the data were processed

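Values were the log2 intensities deposited by the authors, who normalised the arrays of this experiment by RMA (version not given in the sources used here). Their methods state that 1 baricitinib sample of each week failed quality control, as did 1 control sample at baseline of an experiment not named, without saying which, and all 12 deposited arrays were used here. Of 45101 probe sets, 64 controls were left out and 45037 tested. Of these, 34945 carried 1 symbol, 932 several and 9160 none in the platform annotation, updated to RefSeq symbols. The members and lists were chosen with earlier results of these data known.

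Group means were fitted over all 12 arrays with limma 3.58.1 in R 4.3.3 (residual degrees of freedom 8, prior 3.54). The Benjamini-Hochberg adjustment covered every probe set of a comparison, and the threshold was 0.05. Full statistics were given for the members called with baricitinib, Mx1 among them, and at least 1 member of each family was described by array. The number of arrays limits the precision, and signal over background was not computed.

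The labels number the animals, so arrays of 1 number and treatment at both weeks came from 1 mouse. Deviations from the group means correlated between weeks at 0.44, -0.13 and 0.49 for vehicle mice and at -0.36, -0.51 and 0.47 for baricitinib mice. Alternatives were array weights, median centring, cyclic loess, the mean of a gene's probe sets, a replicate block for the mouse (fixed or random), leaving out dim probe sets or each array in turn, a level-dependent prior variance and a fit of the compared groups alone. The index covariate and the removal of both arrays of lowest correlation were added after seeing the data. The fit was tested on simulated data. Promoter letters were searched with Python 3.11.15, and figures drawn with matplotlib 3.10.9.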

Additional observations from a re-analysis of the deposited data

How the results depend on the processing

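The median over the members kept its direction in the baricitinib, vehicle and week 12 comparisons and in the difference of the changes under every alternative run. It ran from -2.05 to -1.42 with baricitinib, -0.77 to -0.15 with vehicle, -1.36 to -0.85 at week 12 and -1.40 to -0.75 for the difference, and at week 0 from -0.21 to 0.28, being below 0 without baricitinib or vehicle week 0 replicate 3. Counts of members called lower were less stable. With baricitinib (12 members) there were 7 with the mouse as a replicate block, 2 in a fit of only the groups compared, 26 with the index covariate and 3 to 16 with 1 array left out. At week 12 (6 members) there were 0 in a fit of only the groups compared, 10 without both arrays of lowest correlation, 14 with the index covariate and 0 to 8 with 1 array left out. There the calls over all probe sets were 55, 1008, 792 and 32 to 625. For the difference of the changes (0 members) there were 0 to 3 with 1 array left out, the 3 without baricitinib week 12 replicate 1. Array weights, whose estimate did not converge, gave 32 with baricitinib, 9 with vehicle, 24 at week 12 and 22 for the difference. They also raised the calls in either direction over all 45037 probe sets. These were 11277 with baricitinib, 4986 with vehicle and 11205 at week 12, against 557, 0 and 261 in the main fit. Of the single members called, 318 values under an alternative stayed past the threshold and 90 did not, and 0 changed sign. Several alternatives cannot change a difference, among them the level-dependent prior, the replicate blocks and leaving out an array of a group not compared. The kept signs and the kept direction of the medians were therefore partly fixed in advance. The fixed block changed no other count. A fixed block could not be fitted for comparisons between mice. Values near or below the array medians, as for Mx2, bound how far a gene can be seen to fall. The cause of these shifts was not tested.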
